A study of Mus musculus with 2 samples.

Results

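The genes described here are commonly used to mark scavenging or alternatively activated macrophages, and they were followed across the myeloid cells of mouse pancreatic tumors. The list was chosen by name, with earlier results of these data known. All 9 of its genes were found by symbol among the 32285 genes of the count matrices. The list held Mrc1 (ENSMUSG00000026712), Cd163 (ENSMUSG00000008845), Msr1 (ENSMUSG00000025044), Marco (ENSMUSG00000026390), Stab1 (ENSMUSG00000042286), Folr2 (ENSMUSG00000032725), Retnla (ENSMUSG00000061100), Mgl2 (ENSMUSG00000040950) and Chil3 (ENSMUSG00000040809). Male C57BL/6J mice, 5 to 6 weeks old when obtained, carried orthotopic tumors grown from K210 cells, a line from a pancreatic tumor that arose in a genetically engineered mouse. The PBS group received phosphate-buffered saline, and the cmExoaCD11b group received exosomes that carried IL-12 mRNA, the STING agonist cGAMP at 5 µg per mouse, and an antibody against CD11b. At 48 h after treatment, cells from the tumors of 3 mice per group were pooled into 1 library of 10x 3′ single-cell RNA. The paper describes these as immune cells. The pooled mice cannot be separated, and the comparison asks how macrophage state differed between the treatments.

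Macrophages take up lipoproteins, glycoproteins, pathogens and dying cells through scavenger receptors and C-type lectins. Interleukin-4 and interleukin-13, acting through STAT6, are known to induce a program called alternative activation (M2) in which several of these receptors and some secreted proteins are made. In tumors, such cells are commonly described as the less inflammatory end of the macrophage spectrum, and the mannose receptor CD206, encoded by Mrc1, is their usual protein marker. Chil3 is also known as a gene of maturing neutrophils and of Ly6C-high monocytes, and Mgl2 as a gene of a subset of dendritic cells.

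Each treatment has a single library, so the differences below have no replicates and were not tested. The level of a gene is its count of unique molecular identifiers (UMIs) in a class per 1000000 UMIs of that class (CPM), with exact Poisson 95% intervals, and ratios are cmExoaCD11b to PBS with exact conditional 95% intervals. Shares of cells carry exact Clopper-Pearson 95% intervals. These intervals cover counting error only, not the spread between mice. The libraries held 67143628 UMIs (PBS) and 81288480 UMIs (cmExoaCD11b), and 6835 and 7075 cells were kept. They shared 16 kept barcodes, 0.234% and 0.226% of their cells. Transcripts of 4 Y-linked genes were found in 4154 and 4883 cells, while Xist was found in 76 and 44 cells. Free RNA was estimated at 2.39% and 2.74% of the UMIs in cells. The estimate divides the share of S100a8, S100a9, Camp, Ngp and Ltf in T and B cells by their share in empty droplets. It takes all such UMIs in T and B cells as free RNA.

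Cells were gated by UMIs of marker genes that did not include any of the 9 genes. The macrophage gate asked for at least 5 of 10 markers (among them Adgre1, C1qa, C1qb, C1qc, Ms4a7, Trem2, Mertk and Apoe) and for less than 5% of UMIs from neutrophil genes. It held 301 cells in PBS and 55 in cmExoaCD11b, 4.40% and 0.777% of the kept cells, with medians of 11730 and 9870 UMIs per cell. Monocytes numbered 93 and 143, dendritic cells (DCs) 47 and 71, and neutrophils 3566 and 3698. The ungated cells, 32.7% and 27.3% of each library, included 161 and 91 cells with at least 5 macrophage markers that another rule of the gate kept out. These deep cells, with medians of 20015 and 20073 UMIs, are given separately where they bear on a result.

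The 9 genes did not follow one pattern across the classes. Mrc1, Msr1, Stab1, Folr2, Marco and Cd163 had their highest level in macrophages, Mgl2 in DCs and Chil3 in neutrophils, and Retnla was nearly undetected. Of all UMIs of a gene in the kept PBS cells, macrophages held 81.9% for Marco, 74.0% for Cd163, 63.4% for Folr2, 55.3% for Mrc1, 51.5% for Stab1 and 49.3% for Msr1. The same share was 10.96% for Mgl2 and 1.48% for Chil3.

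**Figure D1:**
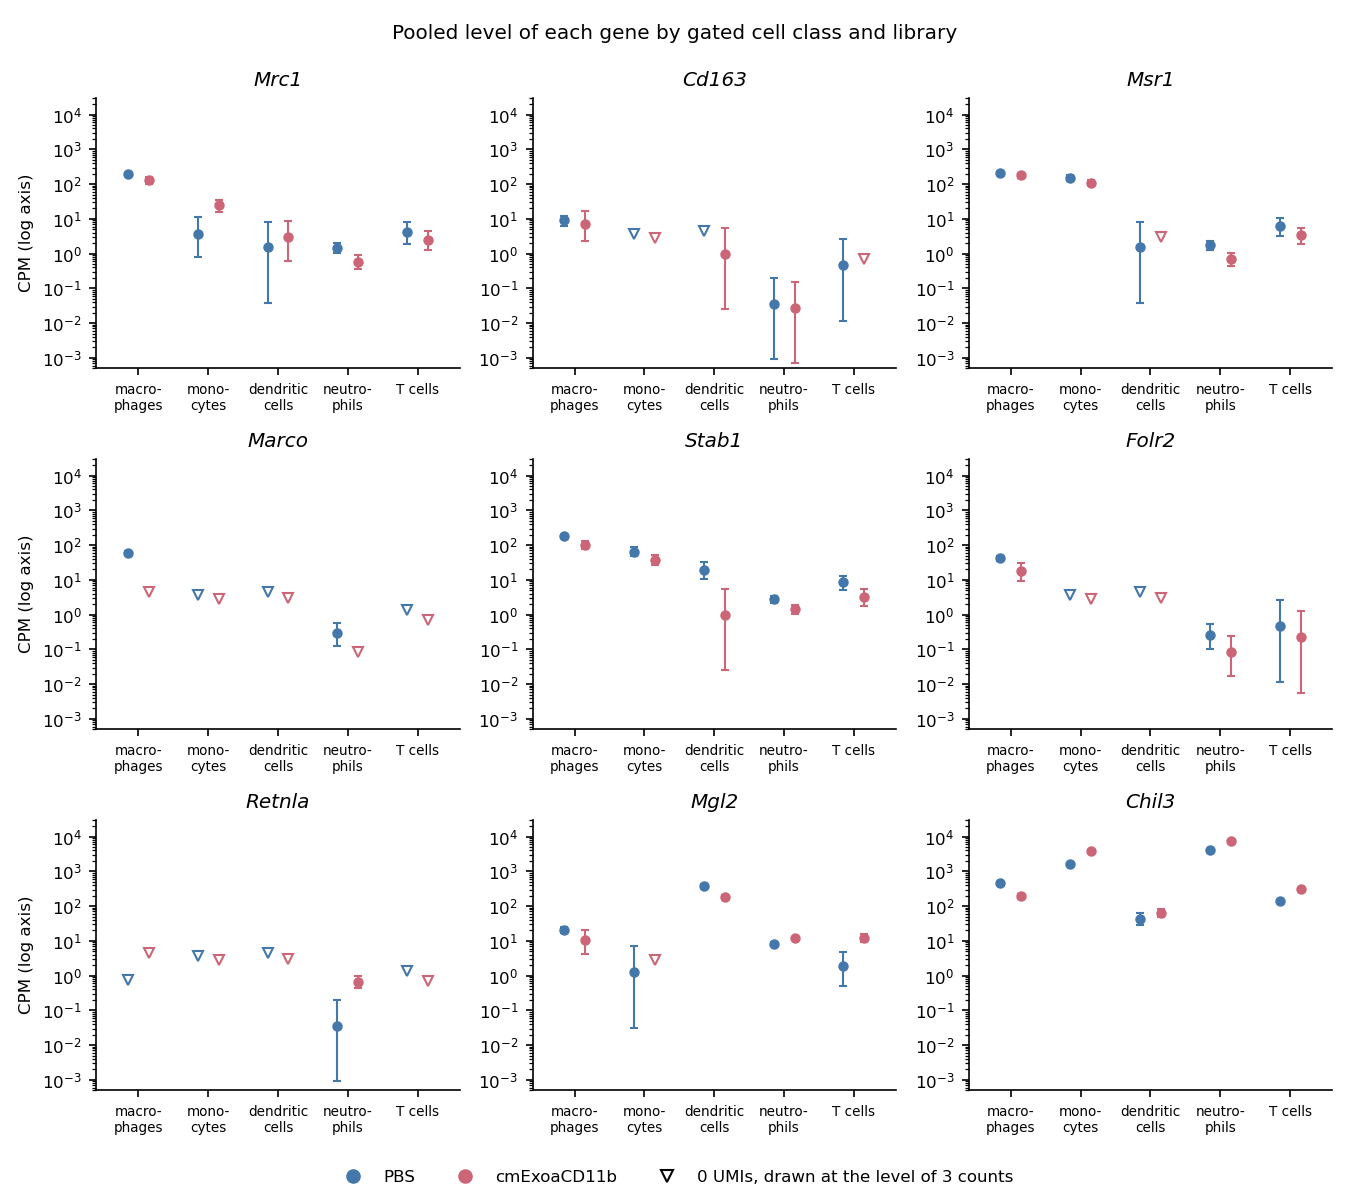
Pooled level of each gene (CPM, log axis) in 5 gated cell classes of the PBS and cmExoaCD11b libraries. Points are pooled values, bars are exact Poisson 95% intervals, and open triangles mark 0 UMIs at the level of 3 counts. The receptors stand highest in macrophages, Mgl2 in dendritic cells and Chil3 in neutrophils.

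Of the 8 genes with at least 20 UMIs in macrophages, 4 (Marco, Folr2, Mgl2 and Chil3) were at least 2-fold lower in cmExoaCD11b and 0 were at least 2-fold higher. Among all 9822 genes with that many UMIs in macrophages, 7.81% were at least 2-fold lower and 5.02% at least 2-fold higher. The median ratio was 0.531 for the 8 genes and 1.02 for all genes. Because the list was chosen with earlier results of these data known, these shares and medians are descriptions only. The cmExoaCD11b value rests on 55 cells, and the summed level of the 10 macrophage markers was 13398 CPM there against 20730 CPM in PBS, with all 10 markers present in both. Summed DC genes, a list that includes MHC class II genes, went the other way in these macrophages, from 3400 CPM in PBS to 6296 CPM in cmExoaCD11b. The MHC class II gene H2-Aa alone gave 1550 of the 4295 UMIs in cmExoaCD11b. Of the 14 genes, 12 and 8 were found. Those at 0 in cmExoaCD11b were Flt3, Cd209a, Ccr7, Kmo and the type 1 DC genes Xcr1 and Clec9a. Neutrophil genes were 5768 and 5666 CPM. The part of these differences in the results was not tested.

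Mrc1, the mannose receptor gene, had 824 UMIs in PBS macrophages, or 199.8 CPM (186–214), and 88 UMIs in cmExoaCD11b, or 129 CPM (103–159). The ratio of 0.646 (0.512–0.805) lay below 1 beyond counting error but did not reach 2-fold. The summed macrophage markers were also lower in these cells, at 20730 CPM in PBS and 13398 CPM in cmExoaCD11b. Their part in the ratios of Mrc1 and the other genes was not tested. A UMI of Mrc1 was found in 157 of 301 and in 23 of 55 macrophages. With every cell thinned to 1000 UMIs, the share of macrophages with a UMI was 18.1% (13.9–23.0) and 10.9% (4.11–22.3), against 0 of 358 T cells in PBS, which allows a share of up to 0.838% at 3 counts and 1.03% by the exact interval, and 0.124% of 807 T cells in cmExoaCD11b. T cells had medians of 5018 and 4278 UMIs before thinning, and Mrc1 in macrophages was thus well above what free RNA gave.

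Stab1, which encodes the clearance receptor stabilin-1, had 733 UMIs (178 CPM, 165–191) in PBS macrophages and 69 UMIs (101 CPM, 78.7–128) in cmExoaCD11b. Its ratio was 0.569 (0.438–0.729), and a UMI was found in 198 of 301 and 25 of 55 cells. Msr1, the class A scavenger receptor that binds modified lipoproteins, had 850 UMIs (206 CPM, 192–220.4) and 121 UMIs (177 CPM, 147–212), with a ratio of 0.861 (0.706–1.04). For Msr1 a difference between the libraries was not detectable at this depth. Folr2, the folate receptor beta gene, was lower in level than these and had 170 UMIs in 51 PBS macrophages (41.2 CPM, 35.3–47.9) against 12 UMIs in 7 cells (17.6 CPM, 9.09–30.7). The ratio was 0.427 (0.216–0.765), but with every cell thinned to 1000 UMIs only 4 of 298 and 1 of 55 cells kept a UMI and the ratio of 1.35 lay on the other side of 1.

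Marco, a class A scavenger receptor that binds bacteria and particles, was held by few cells. It had 244 UMIs in PBS macrophages (59.2 CPM, 52.0–67.1), held by 12 of 301 cells, and 1 cell alone held 100 of them. No UMI was found in the 55 macrophages of cmExoaCD11b, which allows up to 4.40 CPM at 3 counts. Marco was therefore at least 13.4-fold lower against that floor, while the exact interval of the ratio, which is wider, reached up to 0.0921. The share of cells with a UMI, 3.99% (2.08–6.86) in PBS, lay within the 6.49% that the exact interval allows for 0 of 55 cells, so a difference in that share was not detectable. In all kept cells of the cmExoaCD11b library, 1 Marco UMI was counted, against 298 in PBS. Cd163, the receptor for haemoglobin-haptoglobin complexes, was rare in both libraries, with 37 UMIs in 12 cells (8.97 CPM, 6.32–12.4) and 5 UMIs in 2 cells (7.33 CPM, 2.38–17.1). Its ratio of 0.817 (0.251–2.08) is too wide to place it above or below 1.

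**Figure D2:**
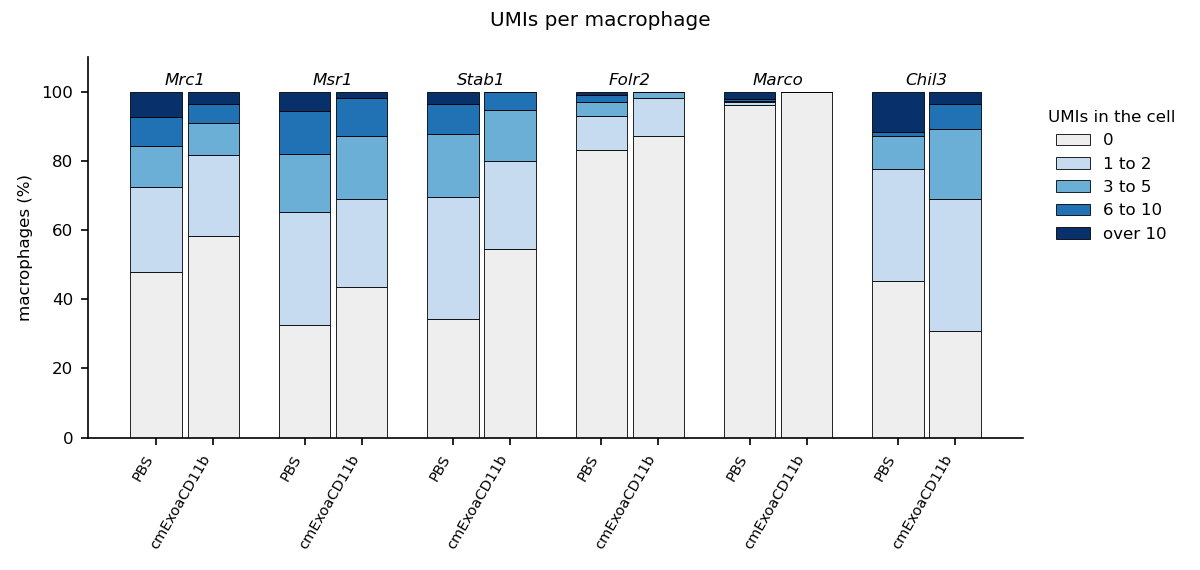
Share of macrophages (%) by the number of UMIs of a gene in the cell, for 6 genes in the 301 PBS and 55 cmExoaCD11b macrophages. Mrc1, Msr1 and Stab1 are spread over many cells, Marco sits in 12 PBS cells, and Chil3 has a tail of PBS cells with over 10 UMIs.

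Among the secreted proteins and lectins of the list, Retnla had 0 UMIs in both groups of macrophages, at limits of 0.727 and 4.40 CPM for 3 counts. It encodes RELM-alpha, a textbook gene of alternative activation in the mouse. Mgl2, a lectin for galactose-type sugars (CD301b), had 86 UMIs in 15 PBS macrophages (20.8 CPM, 16.7–25.8) and 7 UMIs in 2 macrophages of cmExoaCD11b (10.3 CPM, 4.13–21.1). The ratio of 0.492 (0.192–1.06) has an interval that includes 1, and over the alternatives it ran from 0 to 0.772. Mgl2 was no longer 2-fold lower with the stricter gate (0.536), with the ranked cut-off alone (0.555) or with the looser gate (0.772), whereas it was 0.183 without the cell with most Mgl2 UMIs in each library. Chil3, the chitinase-like protein Ym1, had 1928 UMIs (467 CPM, 447–489) and 131 UMIs (192 CPM, 161–228), a ratio of 0.411 (0.342–0.491). In PBS, 35 macrophages held over 10 Chil3 UMIs each and the highest held 257, whereas 2 macrophages of cmExoaCD11b did and the highest held 14. Free RNA alone would give 54.7 CPM in PBS and 150.3 CPM in cmExoaCD11b, taking the empty-droplet level times the share of free RNA. T cells, which should lack Chil3, held 136 and 302 CPM, so the macrophage level was above theirs in PBS and below it in cmExoaCD11b. After thinning to 1000 UMIs, Chil3 was found in 17.8% and 18.2% of macrophages and in 8.94% and 16.0% of T cells. T cells were shallower, with medians of 5018 and 4278 UMIs against 11730 and 9870 in macrophages. B cells held 86.3 CPM (73.6–101) and 125 CPM (113–137), below macrophages in both libraries. DCs were also below macrophages in both, at 43.4 CPM (29.1–62.4) and 64.2 CPM (49.5–81.8). Whether the cmExoaCD11b value is background thus depends on the class it is set against and cannot be told. A gate with 1 fewer marker gave a Chil3 ratio of 0.996, and subtracting free RNA gave 0.101.

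Promoters from RefSeq (GRCm38.p6, 250 bases before to 50 bases after the start) were at hand for 8 of the 9 genes, and Retnla alone held the STAT6 letters TTCNNNNGAA on either strand. Msr1 was not in that table. The promoter of Retnla, at chr16:48842359-48842658 on the plus strand, is shown because its gene is a standard readout of STAT6, and the capitals mark the match 145 bases before the start.
Retnla: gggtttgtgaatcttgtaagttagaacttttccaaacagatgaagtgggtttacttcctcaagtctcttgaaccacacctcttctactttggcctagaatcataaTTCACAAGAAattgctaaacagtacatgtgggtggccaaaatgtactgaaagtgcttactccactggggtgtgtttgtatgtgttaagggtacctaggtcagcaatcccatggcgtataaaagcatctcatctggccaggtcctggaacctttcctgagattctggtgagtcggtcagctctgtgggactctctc
The same letters occur in 6.95% of the 32851 promoters of this length, and a match is a description of sequence, not a binding site.

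When the macrophages were split at 5 Arg1 UMIs, a threshold that depends on depth, the genes differed in where their lower level in cmExoaCD11b lay. Mrc1, Stab1, Msr1 and Folr2 had the lower ratio in the cells under it, Chil3 had the lower ratio in the cells above it, and most PBS Marco UMIs lay in the cells above it. Arg1 encodes arginase 1, and Arg1-high macrophages numbered 179 in PBS and 28 in cmExoaCD11b, against 122 and 27 others. In the Arg1-high cells the ratios of Mrc1 (0.846, 0.635–1.11), Stab1 (0.878, 0.641–1.18), Msr1 (1.04, 0.836–1.29) and Folr2 (0.686, 0.345–1.24) all had intervals that included 1. In the other macrophages, Mrc1 was 286 CPM in PBS and 109 CPM in cmExoaCD11b, a ratio of 0.380 (0.250–0.556). Of the 29 Mrc1 UMIs in those of cmExoaCD11b, 14 lay in 1 cell. Stab1 was 288 and 71.2 CPM there (0.247, 0.147–0.393), and Msr1 was 152 and 86.2 CPM (0.567, 0.350–0.880). Folr2 had 43 UMIs in the other macrophages of PBS and 0 in those of cmExoaCD11b, at least 3.44-fold lower against 3 counts, with an exact interval of the ratio that reached up to 0.373. The 43 UMIs lay in 11 of 122 cells, 15 of them in 1 cell. That share, 9.02% (4.59–15.6), lay within the 12.8% that the exact interval allows for 0 of 27 cells. A difference in the share of cells was thus not detectable. For Chil3 the ratio was 0.378 (0.301–0.470) in Arg1-high cells and 0.705 (0.5001–0.973) in the others. Marco had 229 UMIs in PBS and 0 in cmExoaCD11b in Arg1-high cells, where the interval of the ratio reached up to 0.118, and 15 and 0 UMIs in the others, where the interval reached up to 1.16. The interval in Arg1-high cells began above the end of that in the others for Mrc1 and for Stab1, and the difference between the subsets itself was not tested. Within PBS, Mrc1 in Arg1-high cells was 0.587 (0.509–0.678) of that in the others and Stab1 was 0.476 (0.410–0.553), while Msr1 was 1.49 (1.25–1.77) and Marco 5.63 (3.34–10.2) times as high. Within cmExoaCD11b, the same ratio was 1.31 (0.825–2.11) for Mrc1 and 1.69 (0.979–3.04) for Stab1, both with intervals that included 1. For Msr1 it was 2.74 (1.72–4.52). The 229 Marco UMIs of the Arg1-high cells lay in 9 cells. Chil3 in PBS was 554 CPM in Arg1-high cells and 234 CPM in the others. In cmExoaCD11b it was 209 and 165 CPM, both below the 302 CPM of T cells and above the 125 CPM of B cells. The contrast of the Chil3 ratio between the subsets thus rests mainly on the PBS levels.

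**Figure D3:**
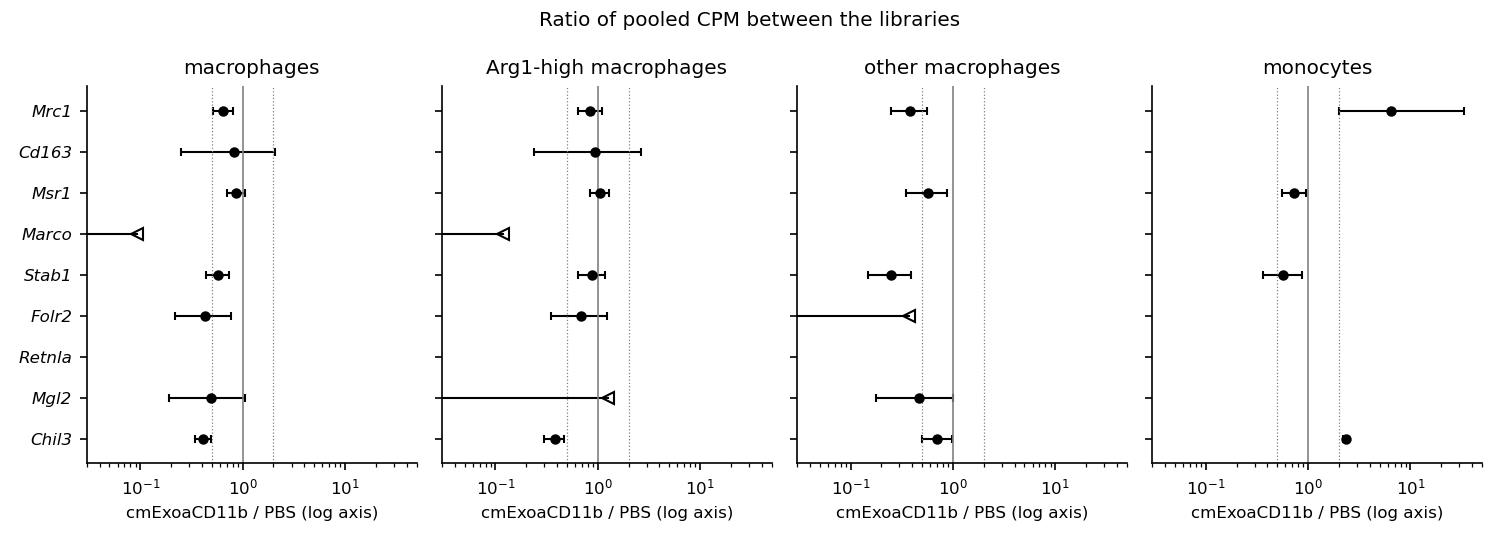
Ratio of pooled CPM, cmExoaCD11b to PBS (log axis), of each gene with at least 20 UMIs in all macrophages, in Arg1-high and other macrophages and in monocytes. Bars are exact conditional 95% intervals, dotted lines mark 2-fold either way, and open arrows mark the upper bound where cmExoaCD11b had 0 UMIs. Mrc1 and Stab1 lie near 1 in Arg1-high macrophages and below 0.5 in the others.

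The 161 and 91 ungated cells with at least 5 macrophage markers had lower Mrc1, Stab1, Folr2, Marco, Msr1 and Mgl2 in cmExoaCD11b, but not Cd163. Mrc1 was 152 CPM in PBS and 80.7 CPM in cmExoaCD11b in them (0.530, 0.445–0.630), Stab1 109 and 37.4 CPM (0.343, 0.266–0.436), Folr2 21.4 and 4.15 CPM (0.194, 0.0854–0.387) and Marco 12.4 and 0.461 CPM (0.0373, 0.000924–0.219). The 45 Marco UMIs of PBS lay in 5 of 161 cells and the 1 of cmExoaCD11b in 1 of 91, so its ratio rests on few cells. Msr1, which had an interval that included 1 in the gated macrophages, was 143 and 83.0 CPM (0.582, 0.489–0.691). The same held for Mgl2, which was 28.3 and 12.0 CPM here (0.424, 0.264–0.657), in 18 and 6 cells. Cd163 had 11 and 12 UMIs, and its ratio of 1.83 (0.740–4.58) had an interval that included 1. Chil3 went the other way, with 1483 and 3095 CPM (2.09, 2.01–2.16). Neutrophils held 4052 and 7487 CPM of it, and the part of neutrophil RNA or doublets in these ungated cells was not tested. The share of Mrc1 UMIs that lay in ungated cells of any kind was 41.2% in PBS and 61.2% in cmExoaCD11b.

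In PBS, macrophages with Mrc1 more often held Stab1, Msr1 and Folr2. With cells thinned to 5000 UMIs, 226 PBS and 43 cmExoaCD11b macrophages remained. Stab1 was found in 64.4% of the PBS cells with Mrc1 and in 30.9% of those without it, Msr1 in 58.6% and 43.2%, and Folr2 in 14.9% and 5.76%. Marco was found in 3.45% of the cells with Mrc1 and 3.597% of those without. Chil3 did not follow either, at 29.9% of the cells with Mrc1 and 41.0% of the cells without. In cmExoaCD11b the shares with Stab1 were 54.5% of 11 cells with Mrc1 and 25% of the rest. None of the 6 receptors was found in 24.8% of PBS and 32.6% of cmExoaCD11b macrophages at this depth. Before thinning, the PBS macrophages with an Mrc1 UMI held 31119 CPM of the 10 macrophage markers against 9519 CPM in those without, at medians of 12515 and 10900 UMIs per cell, while neutrophil genes made up 3938 and 7742 CPM. In cmExoaCD11b the marker levels lay closer together, at 14911 CPM in 23 cells with Mrc1 and 12016 CPM in 32 cells without, and neutrophil genes went the other way, at 7990 and 3545 CPM. Summed DC genes were 4935 CPM in the PBS cells with Mrc1 and 1744 CPM in those without, against 2313 and 9933 CPM in cmExoaCD11b. Of these sums, the MHC class II gene H2-Aa made up 1837 and 554 CPM in PBS and 958 and 3472 CPM in cmExoaCD11b.

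Monocytes shared Msr1 and Stab1 with macrophages but not the other receptors. Msr1 was 152 CPM (126–181) in PBS and 110.3 CPM (91.3–132) in cmExoaCD11b, with a ratio of 0.727 (0.559–0.945). Stab1 was 65.3 CPM (48.7–85.6) and 36.8 CPM (26.1–50.3), with a ratio of 0.564 (0.362–0.870). Summed macrophage markers were lower with them in the monocyte gate, at 4025 CPM in PBS and 2336 CPM in cmExoaCD11b with all 10 found in both, and their part in these ratios was not tested. Cd163, Marco, Folr2 and Retnla had 0 UMIs in the 93 and 143 monocytes, and Mgl2 had 1 and 0. Mrc1 had 3 UMIs in 3 cells of PBS and 26 UMIs in 6 cells of cmExoaCD11b, 15 of them in 1 cell. The Mrc1 ratio of 6.51 (1.996–33.6) thus rests on few cells, and it was 4.11 without the cell with most UMIs in each library. Macrophages held 1.36 (1.12–1.66) times the Msr1 of monocytes in PBS and 1.61 (1.24–2.09) times in cmExoaCD11b, whereas Mrc1 was 53.1 (18.1–258) and 5.26 (3.36–8.49) times as high.

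Chil3 was the strongest of the 9 genes in monocytes, with 1332 UMIs in PBS (1672 CPM, 1583–1764) and 4117 UMIs in cmExoaCD11b (3883 CPM, 3765–4003). It was found in 75 of 93 and 119 of 143 monocytes, and in 52.2% (41.5–62.7) and 59.9% (51.1–68.1) after thinning to 1000 UMIs. The ratio was 2.32 (2.18–2.47). Summed neutrophil genes moved with it in monocytes, from 6101 CPM in PBS to 8843 CPM in cmExoaCD11b, and summed monocyte markers from 4617 to 8419 CPM. Their part in the Chil3 ratio was not tested. Of the 4 genes with at least 20 UMIs in monocytes, 2 (Chil3 and Mrc1) were at least 2-fold higher and 0 were at least 2-fold lower, beside 7.9% and 5.12% of the 7130 genes with that many UMIs. The medians were 1.52 for the 4 genes and 1.05 for all genes.

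In DCs, Mgl2 was the main gene of the list. It had 248 UMIs in 16 of 47 cells in PBS (372 CPM, 327–421) and 189 UMIs in 15 of 71 cells in cmExoaCD11b (187 CPM, 161–215), a ratio of 0.502 (0.414–0.610). The DCs differed in make-up, since type 1 DCs, called by Xcr1, Clec9a and Wdfy4, numbered 11 in PBS and 36 in cmExoaCD11b, against 33 and 31 other DCs. Mgl2 was 97.1 CPM (54.3–160.1) and 29.4 CPM (16.8–47.7) in type 1 DCs and 475 CPM (416–540.4) and 401 CPM (343–465) in the other DCs. In type 1 DCs the ratio was 0.303 (0.140–0.658), but 14 of the 15 PBS UMIs lay in 1 cell. Within the other DCs the ratio was 0.843 (0.688–1.03), with an interval that included 1. In PBS, DCs with Mgl2 held 1066 CPM of Ccl17, a chemokine for CCR4-bearing T cells, against 234 CPM in DCs without it. The values in cmExoaCD11b were 1580 and 60.2 CPM, with Ccl17 found in 9 of 15 and 3 of 56 cells. Rtn1 and Fgfr1, the other genes closest to Mgl2 across cell classes, did not separate these DCs in the same way. Rtn1 was 187 against 157 CPM in PBS and 71.0 against 90.3 CPM in cmExoaCD11b, and Fgfr1 was 55.9 against 85.3 CPM and 88.8 against 56.1 CPM.

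The other genes were low in DCs. Chil3 was 43.4 CPM and 64.2 CPM, at or below the 54.7 and 150.3 CPM that free RNA would give. Stab1 had 13 UMIs in 7 PBS cells and 1 UMI in cmExoaCD11b, Mrc1 had 1 and 3, Msr1 1 and 0, Cd163 0 and 1, and Marco, Folr2 and Retnla had none. Of the 2 genes with at least 20 UMIs, 0 passed 2-fold in either direction, beside 5.85% lower and 6.13% higher among 7485 genes.

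Neutrophils held most of the Chil3 in the tumors, 84.8% of its UMIs in PBS and 83.9% in cmExoaCD11b. The level was 4052 CPM (4028–4076) in PBS and 7487 CPM (7459–7516) in cmExoaCD11b, a ratio of 1.85 (1.83–1.86), while the median gene in neutrophils had a ratio of 1.07 (0.10 on the log2 scale). Chil3 was highest in precursors, cells with at least 3 UMIs of Elane, Mpo, Prtn3 and Ctsg, at 6457 and 10489 CPM. Immature neutrophils, with at least 2% of UMIs from the granule genes Camp, Ngp and Ltf, held 5446 and 8329 CPM. Mature neutrophils, the remaining cells of the gate, held 302 and 538 CPM. Cells that met both of the first 2 rules were called precursors. The threshold of 3 UMIs depends on depth, and precursors had medians of 23476 and 24314 UMIs, against 13889 and 11879 in immature neutrophils. The ratio was above 1 at each stage, at 1.62 (1.61–1.64) in precursors, 1.53 (1.51–1.54) in immature and 1.78 (1.69–1.87) in mature neutrophils. T cells held 136 and 302 CPM, and free RNA would give 54.7 and 150.3 CPM. The part of free RNA in the ratio of mature neutrophils was not tested. The stages were not present in equal shares, with 316 and 516 precursors, 742 and 1070 immature and 2508 and 2112 mature neutrophils. The last 500 bases of the Chil3 transcript share 17.1% of their 50-base words with Chil4 and Gm6522, so a part of its counts is uncertain.

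Mgl2 was also found in neutrophil precursors. The gate counted 227 Mgl2 UMIs in PBS neutrophils and 424 in those of cmExoaCD11b, and 220 and 403 of them lay in precursors, in 65 of 316 and 112 of 516 cells. The level in precursors was 29.6 CPM (25.8–33.8) and 29.7 CPM (26.8–32.7), a ratio of 1.00 (0.847–1.19), against 1.43 (1.22–1.69) over all neutrophils. Free RNA would give 0.385 and 0.325 CPM. Precursors with Mgl2 were the ones richest in azurophil granule genes, with 10357 CPM of Elane and 3982 CPM of Mpo in PBS against 923 and 285 CPM in precursors without it, and they were deeper, with medians of 35166 and 20712 UMIs. In cmExoaCD11b, Elane was 9864 against 525 CPM and Mpo 3155 against 89.8 CPM. Summed DC genes were not higher in them, at 559 against 609 CPM in PBS and 535 against 601 CPM in cmExoaCD11b. Summed monocyte markers were higher in the precursors with Mgl2, at 3493 against 1334 CPM in PBS and 3266 against 1453 CPM in cmExoaCD11b. Their summed neutrophil genes were lower, at 165775 against 311880 CPM in PBS and 160636 against 302915 CPM in cmExoaCD11b.

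**Figure D4:**
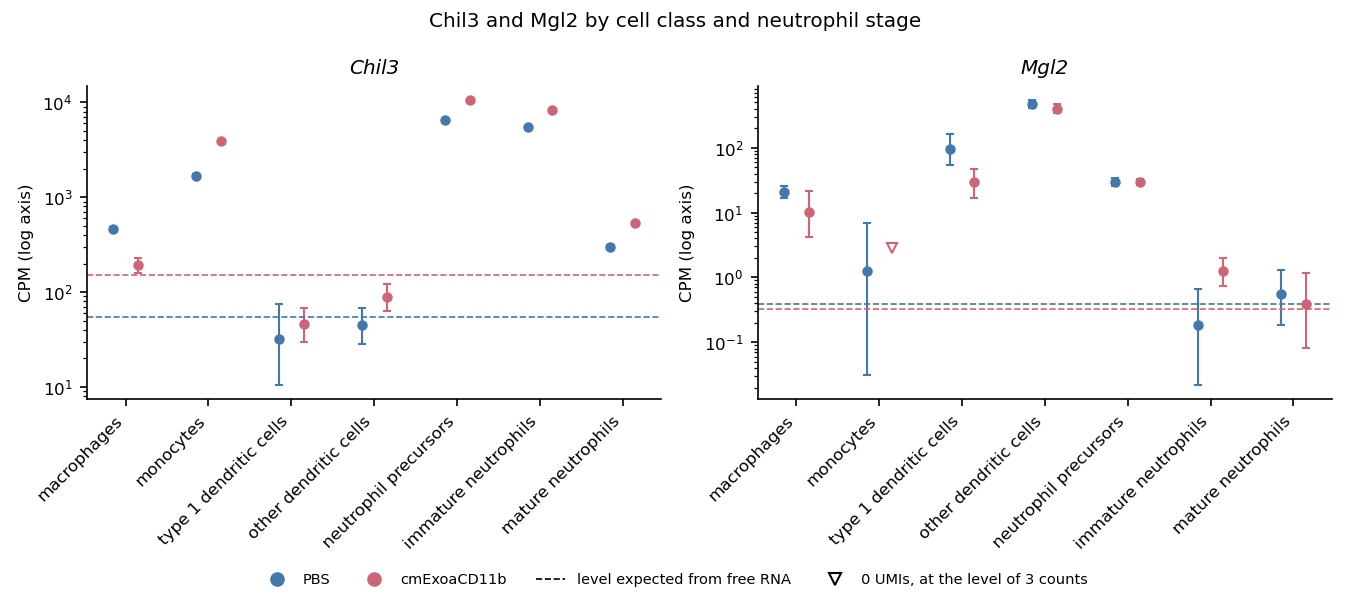
Pooled level (CPM, log axis) of Chil3 and Mgl2 in macrophages, monocytes, 2 groups of dendritic cells and 3 neutrophil stages of the PBS and cmExoaCD11b libraries. Bars are exact Poisson 95% intervals and dashed lines the level expected from free RNA. Chil3 is highest in precursors and immature neutrophils, and Mgl2 is found in other dendritic cells and in precursors.

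The scavenger receptors were low in neutrophils, with Mrc1 and Msr1 near the level of free RNA. Mrc1 was 1.46 CPM in PBS and 0.590 CPM in cmExoaCD11b, against 1.09 and 0.292 CPM expected from free RNA, and Msr1 was 1.72 and 0.702 CPM against 1.18 and 0.438 CPM. Stab1 stood further above it, at 2.78 and 1.43 CPM against 0.820 and 0.199 CPM, and Marco had 8 UMIs in PBS and 0 in cmExoaCD11b. Retnla had 1 UMI in PBS neutrophils and 24 UMIs in 9 neutrophils of cmExoaCD11b, 13 of them in 1 cell, for a ratio of 18.4 (3.002–757). Of 6 genes with at least 20 UMIs, 2 (Mrc1 and Msr1) were at least 2-fold lower and 1 (Retnla) was at least 2-fold higher, beside 4.3% and 3.61% of 12712 genes. With free RNA subtracted the Mrc1 ratio in neutrophils was 0.802 in place of 0.403 and no longer reached 2-fold.

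Other genes of the same functions were read from lists chosen by function. In macrophages, 13 of 20 other scavenger receptors had at least 20 UMIs, and 1 of them, Colec12 (0.427, 0.152–0.968), was at least 2-fold lower and 0 were higher. Over all 9822 genes with that many UMIs in macrophages, 7.81% were at least 2-fold lower and 5.02% higher, so 1 of 13 lay near that share. The median ratio of the 13 was 0.903. Axl, the receptor tyrosine kinase for Gas6, was 1.66 (1.25–2.18), and Cd68, a lysosomal scavenger protein, was 0.611 (0.527–0.706). Of 25 other alternative-activation genes, 17 had at least 20 UMIs, with a median of 0.938, and 3 were at least 2-fold lower and 0 higher. The eosinophil chemokine gene Ccl24 was 130 CPM in PBS and 29.3 CPM in cmExoaCD11b (0.226, 0.137–0.353), Fcrls 65.5 and 7.33 CPM (0.112, 0.0361–0.265) and the growth factor gene Igf1 15.3 and 4.40 CPM (0.288, 0.0578–0.881). Arg1 was 3569 and 2019 CPM (0.566, 0.535–0.598). Among the paralogs of the 9 genes, 3 of 11 had enough UMIs, and only Retnlg, a neutrophil marker, passed 2-fold, at 158 and 394 CPM (2.49, 2.15–2.88). Colec12 and Igf1 had under 100 UMIs, and these, Axl, Cd68 and Arg1 were named after their values were seen.

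In monocytes, of 15 alternative-activation genes with at least 20 UMIs, 4 were at least 2-fold lower, namely Arg1 (2140 and 186 CPM, 0.0868, 0.0745–0.101), Hmox1 (0.321, 0.276–0.372), Ear2 (0.423, 0.223–0.776) and Pparg (0.451, 0.174–1.10). Ccl24 (11.9, 6.78–22.6) and Clec10a (2.13, 0.801–6.60) were at least 2-fold higher. Over all 7130 genes with that many UMIs in monocytes, 5.12% were at least 2-fold lower and 7.9% higher. The intervals of Pparg and Clec10a included 1, and 188 of the 205 Ccl24 UMIs of cmExoaCD11b lay in 1 monocyte. For Arg1, 98 of the 197 UMIs of cmExoaCD11b lay in 1 monocyte. Of 8 scavenger receptors, Cxcl16 (0.352, 0.202–0.595) and Clec4n (0.431, 0.329–0.564) were at least 2-fold lower and Olr1 (2.22, 1.71–2.92) was higher, and the 3 paralogs Retnlg (5.29, 4.09–6.94), Chil1 (17.3, 2.81–712) and Clec10a were higher, with 166 of 472 Retnlg UMIs in 1 cell. These genes were likewise named after their values were seen. The 8 genes listed for tissue-resident macrophages ranged widely in level in macrophages. Timd4, Vsig4 and Cd5l had 7, 13 and 2 UMIs in PBS and 0 in cmExoaCD11b, and Lyve1 had 33 and 3 UMIs. Pf4 was 2087 and 1097 CPM (0.525, 0.487–0.566), Selenop 315 and 221 CPM (0.702, 0.589–0.832) and Gas6 27.6 and 13.2 CPM (0.477, 0.213–0.939), and the list also held Ccl24, given above.

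Across 14 pools (7 cell classes in each library), the genes whose log2 level followed a member most closely were found among 5974 genes. These are descriptions over pools that share libraries, not tests. Mrc1 was closest to Ms4a7 (Pearson r = 0.982), Itga9 (0.981) and Ccl12 (0.960), and Msr1 to Slc7a8 (0.985), Fmn1 (0.984) and Trem2 (0.983). Stab1 was closest to Sash1 (0.980), C3ar1 (0.972) and Fmn1 (0.964). Ms4a7 and Trem2 are among the markers that defined the macrophage gate. Mgl2 followed Rtn1 (0.970), Fgfr1 (0.967) and Ccl17 (0.955), and Chil3 followed Hp (0.974), Lrg1 (0.972) and Fgd4 (0.964), of which Hp and Lrg1 are known granulocyte genes. Marco was closest to Fcrls (0.964), Mmp13 (0.934) and Ppbp (0.898), yet none of the 12 Marco-positive macrophages held a UMI of Fcrls or Mmp13, which were found in 57 and 35 of the 289 others. Cd163, Folr2 and Retnla did not reach 50 CPM in any pool and were not matched.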

How the data were processed

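Cells from tumors, in 2 libraries that were each a pool of 3 mice, were profiled with 10x 3′ v3.1 chemistry. The authors deposited raw UMI counts per gene and barcode with empty droplets included. The matrix headers name Cell Ranger 7.1.0, whereas the methods name another version, and a genome build is not given in the sources used here. Kept cells held 50650189 and 61937156 UMIs.

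Barcodes were called as cells above the 99th percentile of the top 3000 barcodes divided by 10, or with at least 500 UMIs by a multinomial test against empty droplets (barcodes of up to 100 UMIs, 10000 simulations, false discovery rate 0.01). Cells with under 200 genes or over 20% mitochondrial UMIs were removed, and so were 421 and 453 cells with the highest Scrublet scores (0.8% per 1000 cells), since its automatic threshold marked 0 cells. Cells with 2 or more markers of T, B, NK, epithelial, fibroblast, mast or erythroid cells, or 20 plasma-cell UMIs, were kept out of the myeloid gates. Macrophages also had no smaller share of macrophage than of monocyte markers and under 3 DC genes. Monocytes had at least 4 of 8 markers. DCs had at least 10 MHC class II UMIs and 3 DC genes. Neutrophils had at least 5% neutrophil UMIs and 5 markers, or 1% and 2 of Csf3r, Cxcr2 and Il1r2. Gate thresholds were set after seeing marker distributions.

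A gene was counted as different at a ratio of 2 or more, or 0.5 or less, with at least 20 UMIs in both libraries together. Genes outside the list were named at 100 UMIs and 2-fold in macrophages, up to 6 per list, and by the 3 highest correlations of log2(CPM + 10) among genes of at least 50 CPM. The members and lists were chosen with earlier results of these data known. Intervals were tested on simulated Poisson counts only. These counts lack the clumping of UMIs in single cells, so that test does not cover it. Some marker genes and the full genotype behind the tumor line are not reported here. The work used Python 3.11.15, scanpy 1.11.5, scipy 1.17.1, R 4.3.3 and edgeR 4.0.16 (TMM factors only).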

Additional observations from a re-analysis of the deposited data

Results flagged for a closer look

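Mrc1, Mgl2 and Chil3 had ratios on opposite sides of 1 in different cell classes, with intervals that excluded 1. The difference between the classes itself was not tested, since each ratio rests on 1 library per treatment. Mrc1 was at 0.646 in macrophages and 0.403 in neutrophils but at 6.51 in monocytes, where 26 UMIs of cmExoaCD11b lay in 6 cells. In neutrophils the Mrc1 ratio was 0.802 with free RNA subtracted. Mgl2 was at 0.502 in DCs and 1.43 in neutrophils. In other DCs Mgl2 was at 0.843 (0.688–1.03) and in neutrophil precursors at 1.00, both with intervals that included 1. It was at 0.303 (0.140–0.658) in type 1 DCs, with 14 of 15 PBS UMIs in 1 cell. Immature neutrophils gave 6.89 (1.65–61.2), on 2 and 18 UMIs, with 12 of the 18 in 1 cell. The interval in mature neutrophils included 1. Type 1 DCs numbered 11 in PBS and 36 in cmExoaCD11b, and precursors 316 and 516. The part of this make-up in the Mgl2 ratios was not tested. Chil3 was at 0.411 in macrophages and at 2.32 in monocytes and 1.85 in neutrophils. The Chil3 level in cmExoaCD11b macrophages lay below that of T cells and above those of B cells and DCs. The looser gate gave a ratio of 0.996. In the ungated cells with at least 5 macrophage markers the Chil3 ratio was 2.09 (2.01–2.16). The part of neutrophil RNA or doublets in those cells was not tested. The direction of the Chil3 ratio thus differed between these sets of cells with macrophage markers.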

How the results depend on the processing

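The gates, the cell calling and the scaling were varied 1 at a time. The looser gate and the removal of the cell with most UMIs were added after seeing the data. Of 196 recomputed ratios, 171 stayed within the counting interval. On the other side of 1 lay 3 of the 196, all in macrophages: Folr2, 1.35 with cells thinned to 1000 UMIs, and Cd163, 5.42 with that thinning and 1.09 with the ranked cut-off alone. Over all alternatives the ratio in macrophages ran from 0.493 to 0.692 for Mrc1, 0.539 to 0.595 for Stab1, 0.811 to 0.888 for Msr1, 0 to 0.772 for Mgl2 and 0.101 to 0.996 for Chil3, and Marco stayed at 0 UMIs in cmExoaCD11b. Chil3 ran from 1.97 to 2.71 in monocytes and 1.68 to 2.32 in neutrophils, Mrc1 from 0.284 to 0.802 in neutrophils, and Mgl2 from 0.370 to 0.593 in DCs. With cells thinned to 1000 UMIs, 1 gene was past 2-fold in macrophages, 0 in monocytes and 1 in neutrophils, and fewer genes had 20 UMIs. The gene in macrophages was Mrc1 (0.493), while Chil3 moved to 0.677 there. In neutrophils it was Chil3 (2.32), and in monocytes Chil3 was 1.97. The looser gate gave 2 in macrophages. In DCs, where Mgl2 lies at the threshold, 1 gene passed with the ranked cut-off alone, 1 with the stricter gate and 1 with TMM scaling, and 3 with no minimum of UMIs. With no minimum, 5 genes passed in neutrophils. No paired analysis was possible because the 2 libraries are pools of different mice, with 1 library per group. For a gene with 0 UMIs, the 55 macrophages of cmExoaCD11b allow a level of up to 4.40 CPM at 3 counts.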
